A study of Mus musculus with 3 samples.

Results

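The regions described here are the 258 BCL11A peaks on mouse chromosomes 15 and 19, out of 2370 in the deposited list. They were chosen by position in that list: every peak on these chromosomes was taken, whatever its score or width, and each was then put into a compact block or among the dispersed peaks by where its centre lay. A block is a stretch in which peak centres follow each other closely, so the number and spacing of peaks chose the classes and are given as description only. Chromosome 15 had 145 peaks, 33 in its block and 112 dispersed. Chromosome 19 had 113 peaks, 73 in its block and 40 dispersed.

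The peaks come from 1 library of MEL cells, a mouse erythroleukemia line arrested at an early red cell stage. The labels describe cell clones that expressed 2 added proteins: BCL11A with a FLAG-biotin tag, and BirA, a bacterial enzyme that attaches biotin to the tag. Tagged protein was pulled down on streptavidin beads after formaldehyde fixation, and the DNA was sequenced as single molecules on the HeliScope. The other samples, BirA alone (the same enzyme without tagged BCL11A) and input DNA, have 1 sample each and were not analysed here. There was no replicate, the protein pulled down was an added, tagged one, and no source used here names the control behind the peak calls. Peaks of 1 library that lie side by side are not independent. No test was therefore run, and every difference below describes this list.

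BCL11A binds DNA through zinc fingers and recruits corepressors, among them the NuRD chromatin remodelling complex. In red cell precursors it is known for keeping embryonic and fetal globin genes silent after the switch to adult hemoglobin. Both chromosomes carry genes with a role in blood cells. Chromosome 15 carries Myc, a growth regulator, Nfe2, a subunit of an activator of globin genes, and Csf2rb, a shared chain of cytokine receptors. Chromosome 19 carries Jak2, the kinase through which the erythropoietin receptor signals, and Ldb1, an adaptor that holds the globin enhancer and promoter together. The gene table used here belongs to another mouse build, GRCm38.p6, and was read only for the chromosome of each gene. Which gene, exon or intron a peak lies in, and the DNA sequence under it, were not analysed here. All positions below are mm9 and count from 1.

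The blocks were short and dense, and their density and edges follow from the rule that defined them. The chromosome 15 block ran from chr15:68617246 to 69050285, which is 0.433 Mb with 76.2 peaks per Mb. The chromosome 19 block ran from chr19:29304902 to 30163269, which is 0.858 Mb with 85.0 peaks per Mb. Peak intervals covered 6.48% of the first and 9.21% of the second. The dispersed peaks spread over 98.1 Mb of chromosome 15 and 50.2 Mb of chromosome 19, at 1.14 and 0.796 peaks per Mb of those spans.

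The edges of the blocks can be read from the peaks on either side. On chromosome 15 the first peak inside lay at chr15:68617246-68617944 with a score of 58.33, and the last at chr15:69048835-69050285 with 106.55. The nearest peak before the block, at chr15:68134470-68135149 with a score of 51.08, was 483 kb away. The nearest one after it, at chr15:76247440-76247973 with 60.21, was 7198 kb away. On chromosome 19 the first peak inside lay at chr19:29304902-29306176 with a score of 73.84, and the last at chr19:30161385-30163269 with 133.74. The nearest peak before it was 2618 kb away, at chr19:26687186-26687872 with a score of 50.70, and the nearest after it was 657 kb away, at chr19:30819173-30819806 with 62.38. Each block thus had a wide empty flank on 1 side, the distal side on chromosome 15 and the proximal side on chromosome 19, and a nearer neighbour on the other. On chromosome 19 that nearer neighbour stood alone. The next centre after it, at 35.4 Mb, lay 4.53 Mb further on, a longer empty stretch than the one on the proximal side.

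**Figure D1:**
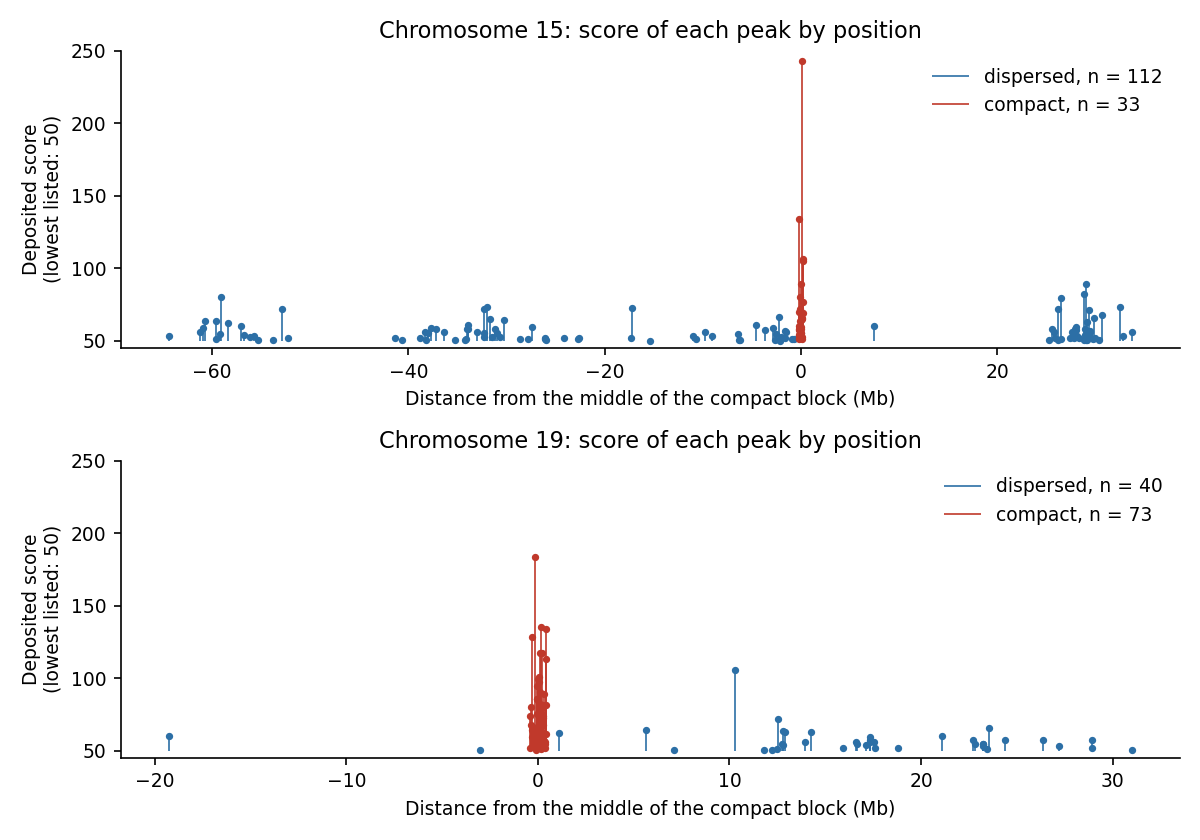
Deposited score of each of the 258 peaks (vertical axis, lines start at the floor of 50) against its distance in Mb from the middle of the compact block of its chromosome, with compact peaks in red and dispersed peaks in blue. The compact peaks stand in 1 narrow column per chromosome and reach 242.70 and 183.84, while the dispersed peaks stay under 90 on chromosome 15 and, with 1 exception at 105.48, under 72 on chromosome 19.

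In the chromosome 15 block 4 of 33 peaks (12.1%) scored over 100, beside 10.0% of all peaks of the list. Of these 4, 3 lay near its distal end. Scores, which are the authors' own values on an unstated scale with a floor of 50, ran from 51.25 to 242.70 with a median of 59.76. The highest peak, at chr15:68989895-68992074, was 2180 bp wide and scored 242.70, which placed it at rank 5 of the 2370 peaks. The second, at chr15:68634506-68636060, was 1555 bp wide and scored 133.93. The third and the fourth were the last peak of the block, 1451 bp wide with 106.55, and chr15:69020929-69022127, 1199 bp wide with 104.69. The fifth, at chr15:68866313-68867299, scored 88.95. These 4 peaks over 100 carried 24.8% of the summed score of the block.

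A gap of 71.8 kb, the longest in the chromosome 15 block, split it into unequal parts. It lay between chr15:68918889-68919565, which had the lowest score of the block (51.25), and the highest-scoring peak on its other side. Before the gap were 28 peaks in 302 kb, with a median score of 58.6, a median width of 699 bp and 1 peak over 100. After it were 5 peaks in 60.4 kb, with scores of 242.70, 68.93, 76.58, 104.69 and 106.55 and a median width of 1199 bp. All 5 scored above the median of the block. The 15 peaks in the central 50% of its length scored 51.25 to 88.95, with a median of 59.4 and 0 over 100. The 18 nearer its ends had a median of 64.6, and 4 of them passed 100.

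Spacing inside the chromosome 15 block was uneven. The 32 distances between neighbouring centres had a median of 9.33 kb and ran from 0.767 kb to the gap of 71.8 kb, with 11 of at most 5 kb and 9 over 20 kb. Counted in steps of 100 kb from the first centre, the block held 13, 4, 10 and 4 peaks, and 2 in the last 32.0 kb. The narrowest peak, at chr15:68656055-68656589, was 535 bp wide and still scored 69.55, above the block's median.

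In the chromosome 19 block the peaks over 100 were spread along its length. Scores ran from 50.67 to 183.84 with a median of 64.09. The highest peak, at chr19:29591007-29594094, was 3088 bp wide, the widest of all 258, and scored 183.84. It was followed by chr19:29915042-29917553 (2512 bp, score 135.46), by the last peak of the block (1885 bp, 133.74), by chr19:29422526-29424030 (1505 bp, 128.48) and by chr19:29822336-29824034 (1699 bp, 117.24). In all, 8 of its 73 peaks (11.0%, beside 10.0% of all peaks of the list) scored over 100 and carried 19.4% of the summed score. They fell into 5 of the 9 steps of 100 kb: 1 each in the second and the third, 2 each in the sixth, the seventh and the ninth. The central 50% of its length held 4 of the 8 and the ends held the other 4. Median scores there were 62.5 and 64.4.

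Peak density changed along the chromosome 19 block and was lowest at its proximal end. The steps of 100 kb held 4, 7, 6, 11, 8, 10, 13 and 8 peaks, and the last 56.8 kb held 6. The summed width of the peaks was 4.26 kb in the first step and 13.5 kb in the fourth, the highest of the steps. The longest gap, 73.3 kb, lay between chr19:29487240-29488274 and chr19:29560739-29561371, with 11 peaks before it and 62 after it. Median scores before and after it were 64.6 and 62.5, against 58.6 and 104.69 for the parts of the chromosome 15 block. The 72 distances between centres had a median of 7.79 kb, with 23 of at most 5 kb and 13 over 20 kb. The narrowest peak of the block was 482 bp wide, at chr19:30039279-30039760, with a score of 56.89, and the lowest score, 50.67, belonged to chr19:29641543-29642246.

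**Figure D2:**
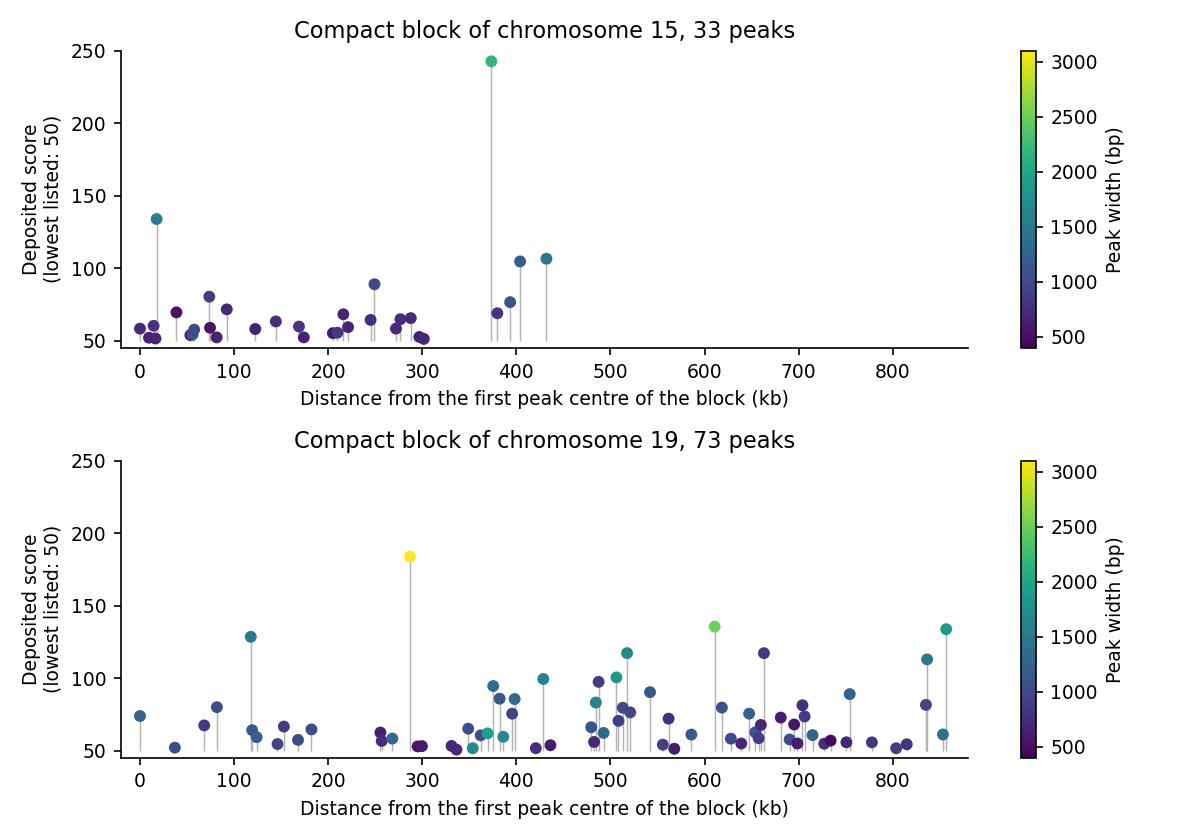
Deposited score of each compact peak (vertical axis, lines start at 50) against its distance in kb from the first peak centre of its block, coloured by peak width in bp, for the 33 peaks of chromosome 15 and the 73 of chromosome 19. On chromosome 15, 3 of the 4 peaks over 100 follow the gap of 71.8 kb and stand at the distal end, while the 8 peaks over 100 on chromosome 19 are spread and include the widest peak, of 3088 bp.

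The dispersed peaks of chromosome 15 were low and lay in several broad groups. Their scores ran from 50.12 to 89.17 with a median of 54.25, and 88 of 112 (78.6%, 95% Wilson interval 70.1 to 85.2) scored under 60. This interval, like those below, treats peaks as independent draws, which they are not, and is no test. The share under 60 was 51.7% of all peaks, 77.5% of the dispersed peaks of chromosome 19 and 74.7% of the 241 peaks on chromosomes without a block. Before the block lay 75 of them and after it 37. The fullest step of 5 Mb, from 95 to 100 Mb, held 27 peaks (5.4 per Mb), and the steps from 30 to 35 Mb and from 65 to 70 Mb held 13 and 12. Other stretches were empty: no centre lay between 76.2 and 94.1 Mb, a distance of 17.9 Mb, nor between 16.6 and 27.5 Mb, a distance of 10.9 Mb.

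The word dispersed fits these peaks only in part, because some stood in short runs. With at least 5 peaks and neighbouring centres at most 250 kb apart, 3 runs on chromosome 15 held 24 of the 112 peaks (21.4%). The fullest held 12 peaks in 0.653 Mb, from chr15:97640062 to 98293341, or 18.4 per Mb, and its highest peak was chr15:97837012-97838416. That peak, 1405 bp wide with a score of 89.17, was both the widest and the highest of the dispersed peaks on the chromosome. The second-highest, chr15:97675196-97676346 with 82.41, stood in the same run. The other runs held 7 peaks from chr15:96470029 to 97187268, with a highest score of 59.69 at chr15:96908761-96909414, and 5 peaks from chr15:34595200 to 34915043, with 60.57 at chr15:34905433-34905961. These runs depend on the gap allowed: with 100 kb only 6 peaks were in runs, and with 500 kb 57 were.

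Outside these runs, some dispersed peaks of chromosome 15 also scored well above the floor. The third-highest, chr15:9754996-9755832, scored 80.21 with its nearest neighbour 134 kb away. The fourth was chr15:95333272-95334183 with 79.57, which had a neighbour 20.9 kb away. The fifth, chr15:36884541-36885149 with 73.29, was only 609 bp wide and lay 225 kb from its nearest neighbour. The narrowest, chr15:65180189-65180702, was 514 bp wide and scored 57.26. The nearest peak lay at a median distance of 135 kb from a dispersed peak, and 12 of the 112, in 6 pairs, had one within 10 kb. The closest pair, chr15:96908761-96909414 and chr15:96909496-96910262, had centres 0.791 kb apart and scores of 59.69 and 57.08.

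The dispersed peaks of chromosome 19 lay almost all on the distal side of its block. Only 2 of 40 lay before it, at 10.5 and 26.7 Mb, and 38 lay after it. Between those 2 peaks was a stretch of 16.2 Mb with no centre. The steps of 5 Mb from 40 to 55 Mb held 11, 10 and 9 peaks, and 3 runs there held 17 of the 40 peaks (42.5%). The first run had 6 peaks from chr19:42205040 to 42609567, the highest of them chr19:42291126-42292017 with 71.94. The second had 6 from chr19:46866459 to 47351216, led by chr19:47058149-47058756 with 59.33, and the third had 5 from chr19:52955568 to 53299267, led by chr19:53298399-53299267 with 65.64. With a gap of 100 kb no run of 5 remained.

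Scores of the dispersed peaks on chromosome 19 ran from 50.17 to 105.48 with a median of 55.30. The highest was out of the ordinary in shape: chr19:40044508-40044890 was 383 bp wide, the narrowest of all 258 peaks, and its nearest neighbour lay 1508 kb away. Per bp of width it scored 0.275, against 0.140 for the next of the 258, chr19:29968229-29969064, which is 836 bp wide with a score of 117.20. After it came the top peaks of the first and the third run, then chr19:35350331-35351074 with 64.15 and chr19:42528228-42529036 with 63.78. The nearest peak lay at a median distance of 103 kb, or 188 kb once peaks with edges within 1 kb were merged. Another peak lay within 10 kb of 9 of the 40, in 3 pairs and 1 group of 3 around 47.1 Mb whose scores were 57.56, 59.33 and 55.96.

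Set against each other, the compact peaks scored higher than the dispersed ones on both chromosomes. On chromosome 15 the medians were 59.76 (quartiles 55.2 and 69.6) and 54.25 (51.5 and 58.8), a difference of 5.51. On chromosome 19 they were 64.09 (55.95 and 79.95) and 55.30 (52.1 and 59.4), a difference of 8.79. The classes overlapped at their lower ends, since both blocks held peaks within 2 units of the floor of 50. They parted at the upper end. A score over 100 was reached by 4 of 33 compact peaks on chromosome 15 (12.1%, 95% Wilson interval 4.82 to 27.3) and by 8 of 73 on chromosome 19 (11.0%, 5.66 to 20.2), beside 10.0% of all peaks of the list. Among dispersed peaks it was reached by 0 of 112 (upper Wilson bound 3.32%) and by 1 of 40 (2.5%, 0.443 to 12.9). The share of high peaks in the blocks was thus close to that of the whole list. Such intervals treat peaks as independent draws, which they are not.

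The blocks differed in how their peaks stood out. On chromosome 19 the compact peaks were wider, with a median of 1011 bp against 667 bp, and 38 of 73 (52.1%) reached 1000 bp, against 0 of 40 dispersed peaks. On chromosome 15 the medians were 721 and 689 bp, and 7 of 33 (21.2%) reached 1000 bp against 5 of 112 (4.46%). Over the whole list 671 of 2370 peaks (28.3%) did, a share above that of the chromosome 15 block and below that of the chromosome 19 block. Among peaks of at least 600 and under 800 bp only, the compact peaks of chromosome 15 still had the higher median score, 58.33 (n = 17) against 52.42 (n = 81), a difference of 5.91. On chromosome 19 the same comparison gave 55.31 (n = 16) against 54.32 (n = 27), a difference of 0.99 in place of 8.79. From 800 to under 1000 bp the compact peaks of chromosome 19 had the higher median, 67.4 (n = 15) against 60.4 (n = 6). On chromosome 15 the medians at that width were close, 64.6 (n = 6) for compact and 65.2 (n = 13) for dispersed peaks. The pattern thus does not hold at every width. Under 600 bp the medians were 58.9 (n = 3) and 57.3 (n = 13) on chromosome 15, and 54.995 (n = 4) and 56.21 (n = 7) on chromosome 19, where the dispersed peaks were the higher ones. At 1000 bp or more they were 104.69 (n = 7) and 73.16 (n = 5) on chromosome 15, and chromosome 19 had no dispersed peak of that width.

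The score per bp of width went in opposite directions on these chromosomes. Its median was 0.0854 in the block and 0.0776 outside it on chromosome 15, and 0.0709 in the block and 0.0807 outside it on chromosome 19. The rank correlation of score with width, across peaks that share 1 library, was 0.62 in the chromosome 15 block and 0.53 in that of chromosome 19. It was 0.26 among the dispersed peaks of chromosome 15 and -0.04 among those of chromosome 19. That last class holds a peak of 383 bp, its narrowest, with its highest score, 105.48. The classes also differed in their share of peaks on the falling curve near the floor, given below. The part of either in these correlations was not tested. Many wide peaks of the chromosome 19 block scored low: its 38 peaks of at least 1000 bp had a median of 70.0, against 104.69 for the 7 of chromosome 15 and 86.2 for the 671 in the whole list.

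**Figure D3:**
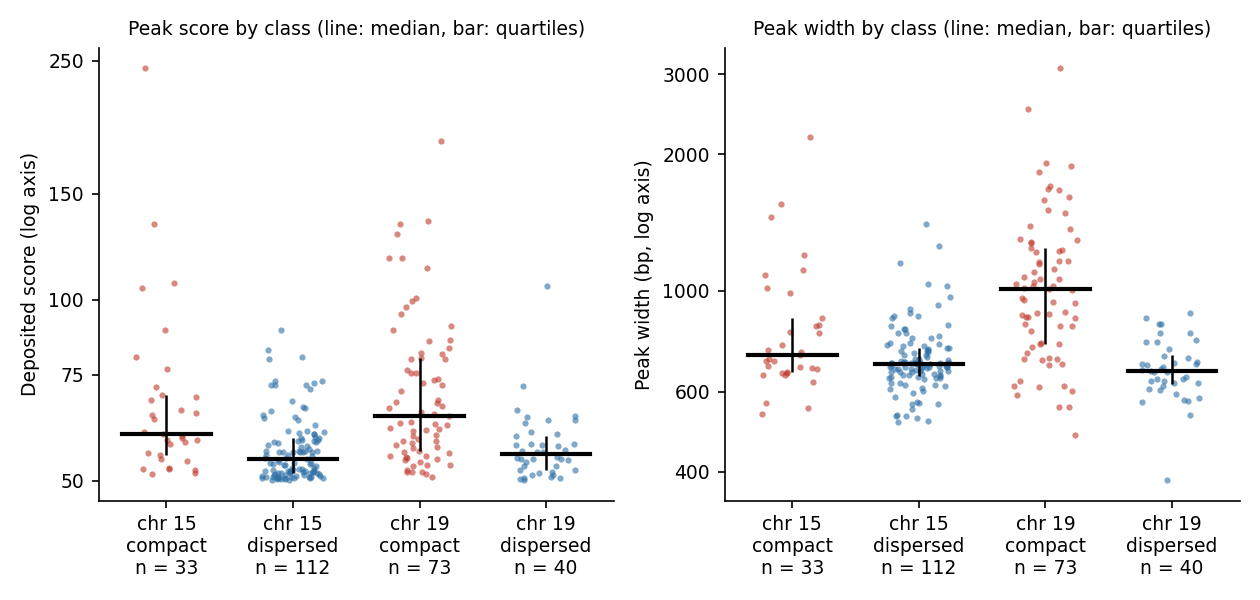
Deposited score (left, log axis) and width in bp (right, log axis) of every peak in the 4 classes, with the median as a horizontal line and the quartiles as a vertical bar. Among these 4 classes, median width was 1011 bp in the chromosome 19 block and 667 to 721 bp in the others. The chromosome 14 block, not shown, had a median of 997 bp. All 4 classes reach down to scores near 50.

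Near the floor, score and width were tied together. In the whole list 710 of 2370 peaks shared both their exact width and their exact score with at least 1 other peak, and the most frequent such pair, 693 bp with a score of 50.38, occurred 13 times. Many peaks near the floor fell on 1 falling curve, the most populated of those searched for after seeing the data. It follows a score of 48636 divided by the sum of the width and 272 bp, and 457 peaks (19.3% of the list) lay within 0.1 of it, at widths of 549 to 698 bp. Closeness within 0.1 was the rule for lying on the curve, so it is not a result. It held 37 of the 112 dispersed peaks of chromosome 15 (33%, Wilson interval 25.01 to 42.2), 14 of the 40 of chromosome 19 (35%, 22.1 to 50.5) and 8 of the 33 compact peaks of chromosome 15 (24.2%, 12.8 to 41.0). In the chromosome 19 block it held 1 of 73 (1.37%, 0.242 to 7.36), a peak of 614 bp with a score of 54.90. The curve held no peak wider than 698 bp, and 38 of these 73 peaks were at least 1000 bp wide. As wide as that were 7 of the 33 compact peaks of chromosome 15, and 5 of 112 and 0 of 40 dispersed peaks. Shares among peaks of like width were not computed.

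**Figure D4:**
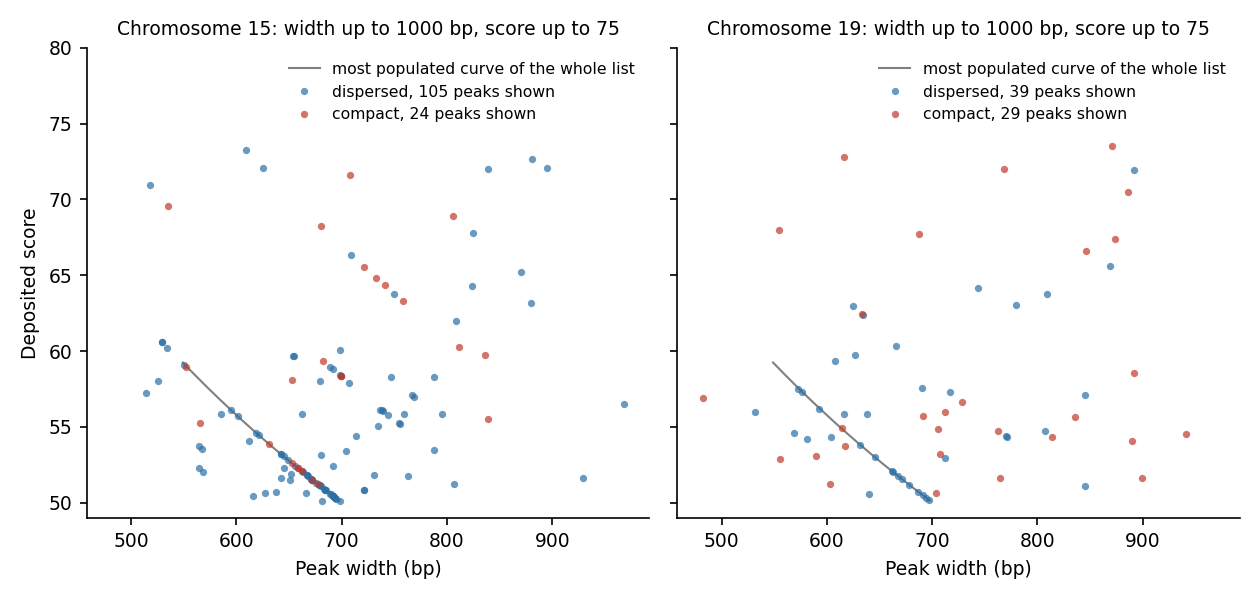
Deposited score against width in bp for the peaks of chromosomes 15 and 19 that are at most 1000 bp wide and score at most 75, with the most populated curve of the whole list in grey. Of the peaks on the grey curve, 51 are dispersed (33.6% of 152) and 9 are compact (8.49% of 106), 8 of the latter on chromosome 15. Over the whole list 19.3% of peaks lie on it.

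Without the peaks on the curve, a choice made after seeing the data that removes low scores, the median on chromosome 15 was 64.8 in the block (n = 25) and 57.0 among dispersed peaks (n = 75), and on chromosome 19 it was 64.4 (n = 72) and 57.2 (n = 26). Identical pairs also crossed the classes: the pair of 699 bp and 58.33 occurred 3 times on these chromosomes, 2 of them in a block, and the pair of 692 bp and 50.43 occurred 4 times, always among dispersed peaks.

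In both blocks the nearest neighbour was a few kb away. The nearest centre lay at a median distance of 4.97 kb on chromosome 15 and 4.81 kb on chromosome 19. Another centre lay within 10 kb of 26 of 33 (78.8%) and of 61 of 73 peaks (83.6%), beside 62.9% over the list. Among peaks at or above the median score of the list, the nearest such peak lay at a median of 11.1 kb in the chromosome 15 block and 5.61 kb in that of chromosome 19. The blocks were defined by close spacing, so these values only describe them.

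Values from elsewhere in the list place these classes. The block of chromosome 14, with 86 peaks in 0.860 Mb, is nearest in length to that of chromosome 19. Its median score was 70.1, its median width 997 bp, and 23 of its peaks (26.7%) scored over 100. The blocks of chromosome 12, with 79 and 57 peaks, had median scores of 58.8 and 55.1 and median widths of 731 and 716 bp. Both widths and the first score were near those of the chromosome 15 block (721 bp and 59.76). The second score was nearer to the 54.25 of the dispersed peaks of chromosome 15. Pooled over the 8 other dense blocks of the list, the median score was 62.5 and the median width 845 bp. Single blocks lay on either side of those values. The 241 peaks on the 13 chromosomes with any peak but no dense block had a median score of 54.8 and a median width of 678 bp, within 1 unit and 11 bp of both dispersed classes. Of these 241, 36.5% lay on the most populated curve. None of these differences was tested.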

How the data were processed

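The authors deposited 1 list of peak intervals with 1 score per peak for the tagged BCL11A sample. Peaks were called with CisGenome, per the file headers, and the genome build is mm9, per the submitters' processing notes. No source used here gives the aligner, control, threshold, read depth or scale of the score. Each chromosome has 1 block, a run of 20 or more peaks in which no step between centres exceeds 250 kb. Members and classes were chosen with earlier results of these data known. Centres, widths, distances to the nearest centre, medians, runs of peaks and 95% Wilson intervals were computed with Python 3.11.15, numpy 2.4.6, pandas 2.3.3 and scipy 1.17.1; figures were drawn with matplotlib 3.10.9. The code for runs, merging and distances was tested on simulated data. Peaks named are, per class, the 5 highest scores, the widest and the narrowest, with block edges, the longest gap in each block and the top of each run; peaks named for their closeness, score per bp or lowest score were chosen after their values were seen. All 26 listed genes matched the GRCm38.p6 table (14 on chromosome 15, 12 on chromosome 19). Base composition and motifs need mm9 sequence and were not run.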

Additional observations from a re-analysis of the deposited data

How the results depend on the processing

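Of 88 values under the alternatives, 59 stayed within the 95% binomial interval of the reported median or share or, for counts, within 1.5 times. Those intervals treat peaks as independent draws, and part of the 59 could not have moved. Leaving out dispersed peaks cannot alter a value of the compact peaks. A shift within a peak is far smaller than the distances at the block edges. Distances to the nearest peak were not computed anew where flanking or top peaks were left out. Merging within 1 kb, leaving out dispersed peaks within 5 Mb of a block, and positions at interval starts took no value beyond these limits. The median nearest distance of the dispersed peaks of chromosome 19 still went from 103 to 188 kb when merged within 1 kb, and to 269 kb within 10 kb. Without the top peak of each class, the share over 100 among dispersed peaks of chromosome 19 fell from 2.5 to 0%. Dividing the score by width reversed the difference on chromosome 19 (-0.0098 per bp) and not on chromosome 15 (0.00781). From 600 to under 800 bp the score differences were 5.91 and 0.99, and without peaks on the most populated curve, a choice made after seeing the data, 7.86 and 7.17. Among peaks at or above the list's median score, 17 and 26 remained on chromosome 15 and 46 and 10 on chromosome 19, compact and dispersed; score differences were 3.40 and 12.1, the width difference reversed on chromosome 15 (-13.5 bp, from 32 bp) and was 427 bp on chromosome 19 (from 344 bp), and median distances to the nearest peak were 11.1 kb (chromosome 15 compact, against 5.61 kb on chromosome 19), 736 kb (dispersed) and 1808 kb (chromosome 19 dispersed). Merged within 10 kb, score differences were 15.1 and 17.97, width differences 4737 and 3777 bp, nearest distances in the blocks 21.9 and 22.1 kb, and 24.1% of merged peaks of the chromosome 19 block scored over 100; merging keeps the highest score and joins intervals, which raises scores, widths and distances by construction. A gap of 500 kb put 60 peaks of chromosome 15 in runs of at least 20: the block with 2 more peaks and a second run of 25 from chr15:96216597 to 99535757. Dispersed peaks in runs numbered 6, 57 and 55 on chromosome 15 with gaps of 100 kb, 500 kb and at least 3 peaks, and 0 on chromosome 19 with 100 kb. The cause was not tested. No paired analysis was possible because the groups hold a single sample apiece. Depth limits cannot be given, since the list holds no reads.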
